A study of Mus musculus with 33 samples.

Results

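Granulocyte-monocyte progenitors that lack the surface antigen Ly6C (Ly6C- GMP) were compared between septic and control mice, across all genes of the deposited count table. The members are the 6 libraries whose cell type label names this population, 3 from control mouse bone marrow and 3 from mice killed on day 3 of sepsis set off by mid-grade caecal ligation and puncture, out of 33 libraries in the series. Caecal ligation and puncture is a surgical model of sepsis in which gut bacteria leak into the abdomen. The control mice are called wild type in the design text, no strain, age or sham operation is given in the labels, and septic cells were sorted with the gates used for control cells. The other libraries hold control monocyte-path and neutrophil-path stages and septic proNeu1, proNeu2 and preNeu, the successive neutrophil-path stages after the GMP. The 3 libraries of a group are described as biological replicates, and the labels do not say whether different populations came from the same mice.

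GMP are bone marrow progenitors that divide and give rise to neutrophils and monocytes. In severe infection the marrow raises neutrophil output, a response known as emergency granulopoiesis, in which cytokines such as G-CSF and IL-6 signal through STAT3 and microbial products signal through Toll-like receptors. A sorted GMP gate can also hold early cells of the eosinophil, basophil and mast cell, erythroid, megakaryocyte and dendritic paths, because these share surface antigens with GMP.

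The 6 libraries held 21.7 to 28.2 Mcounts (megacounts). Expression is given as CPM, counts per megacount after TMM scaling, which corrects for library composition. Pearson correlations of log expression, taken across genes, were 0.975 to 0.979 within the control libraries, 0.982 to 0.986 within the sepsis libraries and 0.949 to 0.956 between the groups. Mitochondrial transcripts took 1.65 to 1.80% of the counts of control libraries, 2.49% of sepsis library 1, and 1.32% and 1.2% of sepsis libraries 2 and 3. A change is given as log2(sepsis / control) ± SE from edgeR's quasi-likelihood test, with n = 3 libraries per group and p-values adjusted by the Benjamini-Hochberg method over all 18198 genes tested, and a gene was called at an adjusted p under 0.05.

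Genes of the sorting gate were read first. Kit, the stem cell factor receptor, was at 439, 491 and 362 CPM in control libraries 1, 2 and 3 and 258, 353 and 234 in sepsis libraries 1, 2 and 3, a change of -0.61 ± 0.19 with an adjusted p of 0.0219. This call was lost without sepsis library 1 or 3 or without control library 1 or 2, with adjusted p up to 0.134. Fcgr3, which encodes the CD16 Fc receptor, was at 467, 520.1 and 473 CPM in control and fell to 331, 306 and 278, a change of -0.67 ± 0.14 with an adjusted p of 0.000705. The calls of Kit and Fcgr3 were lost against a fold change of 1.5 (adjusted p = 0.66 and 0.463). Cd34, a sialomucin of progenitors, read 419, 419 and 412 CPM in control and 265, 183 and 176 in sepsis, and its change of -1.003 ± 0.54 was not called (adjusted p = 0.222), though it was with only the libraries compared (adjusted p = 0.00248) and by limma (1.01e-05). Ly6a, which encodes Sca-1 and is low on GMP, stayed at or below 2.23 CPM, and Ly6g, a marker of maturing neutrophils, at or below 0.554 CPM in every one of the 6 libraries. Ly6c2, which encodes the antigen that the gate excludes, was nonetheless transcribed, at 109, 157 and 104 CPM in control and 148, 154 and 137 in sepsis, and its change of 0.25 ± 0.19 was not called (adjusted p = 0.417).

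Sepsis changed the RNA of Ly6C- GMP broadly. Of the 18198 genes tested, 1872 were called higher (10.3%) and 1351 lower (7.42%), which is 17.7% in all. At least 2-fold changes were seen in 788 of the genes called higher (4.33% of those tested) and 743 of those called lower (4.08%). The libraries of the groups did not overlap for 6699 genes (36.8%). Protein-coding genes made up most calls, with 1722 higher and 1232 lower of 12975. Immunoglobulin and T cell receptor segments gave 0 higher and 30 lower of 101.

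**Figure D1:**
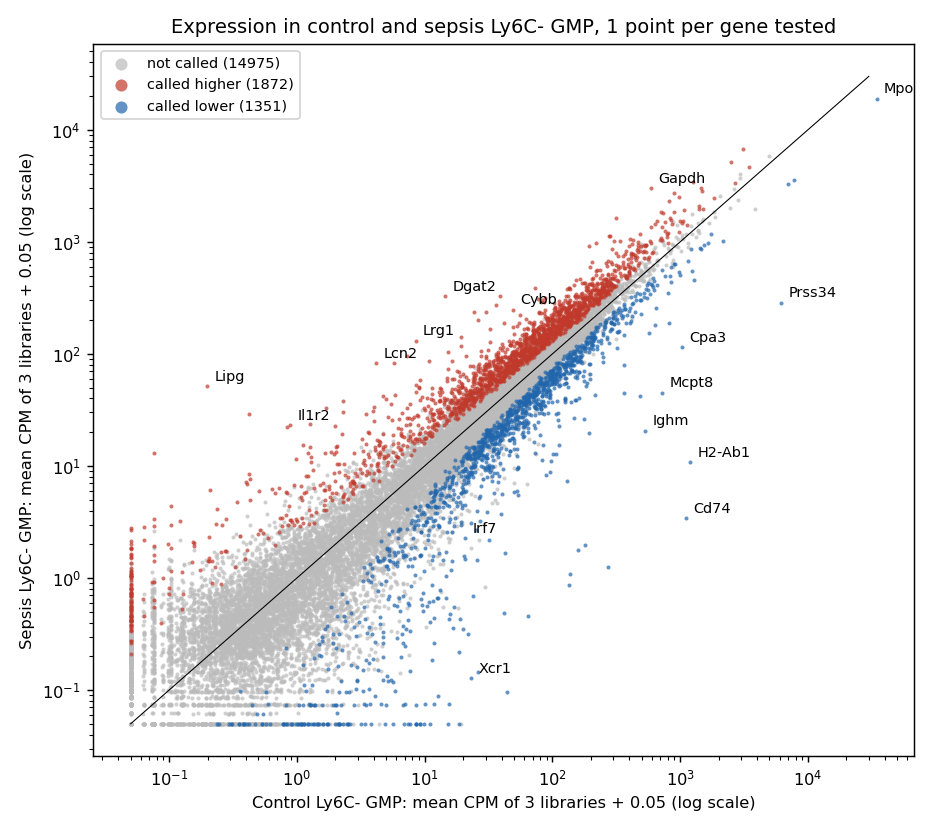
Mean CPM of the 3 control libraries (horizontal) and the 3 sepsis libraries (vertical) for each gene tested, both plus 0.05 on log scales, with the line of equality. The 1872 genes called higher are red and the 1351 called lower blue; Lipg, Il1r2, Dgat2 and Lcn2 stand far above the line, and Cd74, H2-Ab1, Ighm and Prss34 far below it.

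The largest rises were in genes of lipid handling, IL-1 receptors and acute phase products. Lipg, which encodes endothelial lipase, went from 0.0791, 0.284 and 0.0796 CPM in control libraries to 30.6, 57.7 and 65.6 in sepsis libraries, a change of 8.34 ± 0.68 with an adjusted p of 1.37e-09. It was close to absent in control Ly6C- GMP and present in each septic library. Dgat2, which makes triglyceride in its last step, rose from 13.1, 11.3 and 18.7 to 249, 373 and 363 CPM, a change of 4.51 ± 0.24 with an adjusted p of 7.81e-13. Bcat1, a cytosolic transaminase of branched-chain amino acids, rose from 1.11, 0 and 0 to 40.1, 15.8 and 31.5 CPM, a change of 6.29 ± 1.66 with an adjusted p of 0.0091. Control libraries 2 and 3 had no count for Bcat1. Il1r1, the signalling receptor for IL-1, rose from 1.34, 0.284 and 0.716 to 16, 34.8 and 16.4 CPM, a change of 4.84 ± 1.06 with an adjusted p of 0.00157. Clu, a secreted chaperone, rose from 7.83, 7.18 and 2.07 to 72.8, 93.8 and 81.9 CPM (3.86 ± 0.62, adjusted p = 4.25e-05). For Kcnk12 and Tbkbp1, also among the largest rises, sepsis library 1 stood well below libraries 2 and 3. Kcnk12, a potassium channel subunit, read 4.71, 43 and 50.9 CPM in sepsis against 2.18, 2.49 and 0.239 in control (4.32 ± 1.24, adjusted p = 0.0144), and its call was lost without control library 3 (adjusted p = 0.0767) and with limma (0.149). Tbkbp1, an adaptor of TANK-binding kinase 1, read 6.53, 29 and 35.6 CPM in sepsis against 1.58, 1.78 and 0.279 in control (4.27 ± 0.77, adjusted p = 0.000185), and limma did not call it (adjusted p = 0.0712).

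Several genes that respond to G-CSF, IL-6 and STAT3 were raised. Of 23 tested members of this list, 9 were called higher and 0 lower, with a median change of 0.61 against -0.01 for all genes tested. Il1r2, the decoy receptor that captures IL-1 without signalling, rose from 0.396, 1.71 and 0.398 to 12.2, 26.9 and 30.2 CPM, a change of 4.75 ± 0.59 with an adjusted p of 1.27e-06. Lrg1, a secreted glycoprotein of the acute phase, rose from 7.67, 10.1 and 7.64 to 88.7, 159 and 146 CPM, a change of 3.95 ± 0.47 with an adjusted p of 6.54e-07. Il4ra, a receptor subunit for IL-4 and IL-13, rose from 28.5, 38.1 and 29.9 to 174, 184 and 145 CPM, a change of 2.38 ± 0.18 with an adjusted p of 3.92e-10. The libraries of the groups did not overlap for any of these 3 genes. Socs3, the feedback inhibitor of STAT3 signalling, went from 0.633, 1.42 and 3.9 to 16.9, 14.8 and 12.8 CPM, and its call (2.90 ± 1.02, adjusted p = 0.0488) was lost without sepsis library 1, 2 or 3 or control library 1 or 2, with adjusted p up to 0.175. Cebpb, a transcription factor of emergency granulopoiesis, was called at 6.25 ± 2.12 (adjusted p = 0.0395), but its rise rested on sepsis library 3: the sepsis libraries read 0, 0.36 and 12.7 CPM, and without library 3 the adjusted p was 0.748. The list's count was 5 without sepsis library 3 or without control library 1. Csf3r, the G-CSF receptor itself, read 168, 213 and 280.1 CPM in control and 296, 289 and 277 in sepsis and was not called (0.38 ± 0.14, adjusted p = 0.0566). It was called higher without control library 3 (adjusted p = 0.00394), by limma (0.011) and with halved counts (0.0431).

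Upstream windows are shown for genes whose libraries did not overlap between the groups, 1 from the STAT3 list and, as described below, 1 each from the interferon and MHC class I lists, 2 from the class II list, and Cybb for comparison. The windows are from RefSeq annotation of the GRCm38.p6 assembly, read 5′ to 3′ on the gene's strand, and capitals mark matches on either strand to the motif searched. Motif letters were TTCNNNGAA for a STAT-type site, which reads the same on both strands, GAAANNGAAA for an interferon response type and CCAAT for the CCAAT box, and the CCAAT search was added after the values had been seen. A match describes the letters in a window and shows no binding. Of the genes tested, 11094 matched a RefSeq promoter window by symbol, which spans 250 bases before to 50 after the start. The STAT-type letters were in 8.40% of these windows, in 7.70% of those of genes called higher and 8.004% of those called lower, in 4 of the 19 STAT3 list members with a window, and in 11 of 34 interferon list members (32.4%). Il1r2 held 1 STAT-type match at chr1:40085942-40086030 on the + strand.
Il1r2: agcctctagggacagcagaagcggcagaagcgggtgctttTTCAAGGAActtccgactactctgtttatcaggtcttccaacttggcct

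Receptors for microbial products moved in both directions. Tlr2, the receptor for bacterial lipopeptides, rose from 7.87, 9.67 and 8.12 to 41.9, 49.4 and 45.3 CPM, a change of 2.41 ± 0.24 with an adjusted p of 5.53e-08. Myd88, the adaptor shared by most Toll-like receptors and IL-1 receptors, rose from 51.4, 51.4 and 43.5 to 178, 171 and 175 CPM, a change of 1.84 ± 0.13 with an adjusted p of 7.97e-11. Tlr4, the receptor for lipopolysaccharide, rose from 17.9, 13 and 19.5 to 40.2, 45.2 and 39.8 CPM, a change of 1.31 ± 0.30 with an adjusted p of 0.00236. For these 3 genes each septic library was above each control library, and the call of Tlr4 was lost against a fold change of 1.5 (adjusted p = 0.0515). Tlr3, a receptor for double-stranded RNA, fell from 19.4, 27.1 and 8.99 to 0, 0 and 0.512 CPM (-6.69 ± 1.78, adjusted p = 0.00882). Tlr13, a receptor for bacterial ribosomal RNA, fell from 6.33, 8.18 and 0.955 to 0.232, 1.37 and 0.205 CPM (-3.09 ± 0.82, adjusted p = 0.00784), with control library 3 below sepsis library 2. The Tlr13 call was lost without sepsis library 3 (adjusted p = 0.0573) or control library 2 (0.0548), with only the libraries compared (0.0615) and by limma (0.0871). Of 30 tested Toll-like receptor and IL-1 family genes, 6 were called higher and 4 lower, with a median change of 0.26.

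The NF-kB response list had 8 of 27 members called higher and 2 lower, with a median of 0.51, and 5 higher without control library 3. Its 2 lower calls came to 1 without sepsis library 1 and to 0 without sepsis library 2 or 3 or control library 1. Nfkbid, an atypical inhibitor of NF-kB, rose from 9.26, 5.05 and 4.14 to 21.6, 24.5 and 18.7 CPM, a change of 1.81 ± 0.29 with an adjusted p of 4.59e-05. Among receptors, Tnfrsf1a, a receptor for TNF, rose from 65.1, 74.9 and 46.6 to 159.5, 144 and 149 CPM (1.28 ± 0.18 with an adjusted p of 8.92e-06). Csf2rb, the shared subunit of the IL-3, IL-5 and GM-CSF receptors, rose from 169.7, 132 and 233 to 433, 458 and 402 CPM (1.27 ± 0.14 with an adjusted p of 2.45e-07). These receptors rose while Kit was lower, so the receptor list as a whole, with 5 higher and 5 lower of 25, did not lean to a side; its 5 lower calls came to 0 without sepsis library 3, 1 without sepsis library 1 or control library 2, 2 without control library 1, and 3 without sepsis library 2 or control library 3. Of 17 glucocorticoid response genes, 4 were called higher and 0 lower, among them Sgk1, a kinase of the glucocorticoid response, from 9.37, 6.04 and 3.3 to 27, 22.9 and 29.1 CPM (2.08 ± 0.37 with an adjusted p of 0.000163), and the list's median was 0.06.

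Neutrophil granule genes did not move as a block. The azurophil granule, made first in neutrophil development, lost transcripts of 2 of its most abundant products. Mpo, myeloperoxidase, fell from 29674, 36334 and 37318 to 18583, 20659 and 17633 CPM, a change of -0.86 ± 0.15 with an adjusted p of 0.000156. Elane, neutrophil elastase, fell from 5947, 7883 and 7067 to 3079, 3315 and 3490.3 CPM, a change of -1.08 ± 0.22 with an adjusted p of 0.000807. Both groups of libraries were fully separated for Mpo and Elane. Both calls were lost when the test was against a fold change of 1.5 (adjusted p = 0.132 for Mpo and 0.0697 for Elane). Serpinb1a, an inhibitor of these proteases, rose from 303, 387 and 316 to 576, 557 and 638 CPM (0.82 ± 0.15 with an adjusted p of 0.000158), a call also lost against a fold change of 1.5 (adjusted p = 0.178). Of 12 azurophil genes, 1 was called higher and 3 lower, with a median of 0.48. The higher calls came to 6 with only the libraries compared, and by limma 6 were higher and 2 lower.

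Specific granule and late neutrophil genes rose in part. Lcn2, lipocalin 2, which withholds iron from bacteria, rose from 4.19, 4.91 and 3.26 to 66.2, 84.1 and 96.3 CPM, a change of 4.31 ± 0.35 with an adjusted p of 1.28e-09. Chil3, a chitinase-like lectin, rose from 25.9, 29.97 and 22.9 to 108, 296 and 199.99 CPM (2.94 ± 0.40 with an adjusted p of 5.89e-06). S100a8, a subunit of calprotectin, rose from 8.58, 12.4 and 11.5 to 54.8, 80.4 and 122 CPM (2.98 ± 0.32 with an adjusted p of 1.18e-07). Sepsis library 1 was the lowest of the septic libraries for Lcn2, Chil3 and S100a8, and still above each control library. By limma, Chil3 (adjusted p = 0.178) and S100a8 (0.0506) were not called. Ltf, lactoferrin, read 26.3, 17.2 and 22.3 CPM in control and 11.8, 26.7 and 15.5 in sepsis and was not called (-0.28 ± 0.43, adjusted p = 0.731), and neither was Camp, the cathelicidin (-0.04 ± 0.41, adjusted p = 0.981). Cebpe, a transcription factor needed for specific granules, fell from 214, 157 and 214 to 21.5, 54.8 and 102 CPM (-1.71 ± 0.43 with an adjusted p of 0.00555), and Cd63, a granule membrane tetraspanin, from 674, 605 and 623 to 183, 157 and 201 CPM (-1.81 ± 0.29 with an adjusted p of 3.79e-05). In all, 6 of 19 specific granule genes were called higher and 3 lower. Of 29 late neutrophil genes, 11 were called higher and 1 lower (median 0.38), and 7 higher without control library 1 and 0 lower without sepsis library 1 or control library 2.

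Genes of the oxidase that makes superoxide rose. Cybb, its catalytic membrane subunit, rose from 57.7, 50.3 and 40.1 to 212, 308 and 222 CPM, a change of 2.33 ± 0.20 with an adjusted p of 3.6e-09. Ncf1, a cytosolic organizer subunit, rose from 83.5, 80.3 and 98.4 to 306, 329 and 306 CPM, a change of 1.84 ± 0.18 with an adjusted p of 2.45e-08. Ncf4, a further cytosolic subunit, rose from 74, 71.5 and 91.4 to 154, 163 and 194 CPM, a change of 1.11 ± 0.12 with an adjusted p of 2.45e-07. Of the 6 oxidase genes tested, 4 were called higher and 0 lower, with a median of 0.75. Clec5a, a lectin receptor of myeloid cells, rose from 20.2, 28.7 and 41.9 to 220.1, 238 and 251 CPM (2.96 ± 0.21 with an adjusted p of 1.11e-10). Of 15 acute phase and iron-withholding genes, 6 were called higher and 0 lower, including Hp, haptoglobin, from 171, 247 and 256 to 542, 545 and 587 CPM (1.31 ± 0.11 with an adjusted p of 3.08e-09), and the complement component C3, from 73.7, 108 and 72.5 to 166, 183 and 162 CPM (1.01 ± 0.16 with an adjusted p of 2.72e-05).

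**Figure D2:**
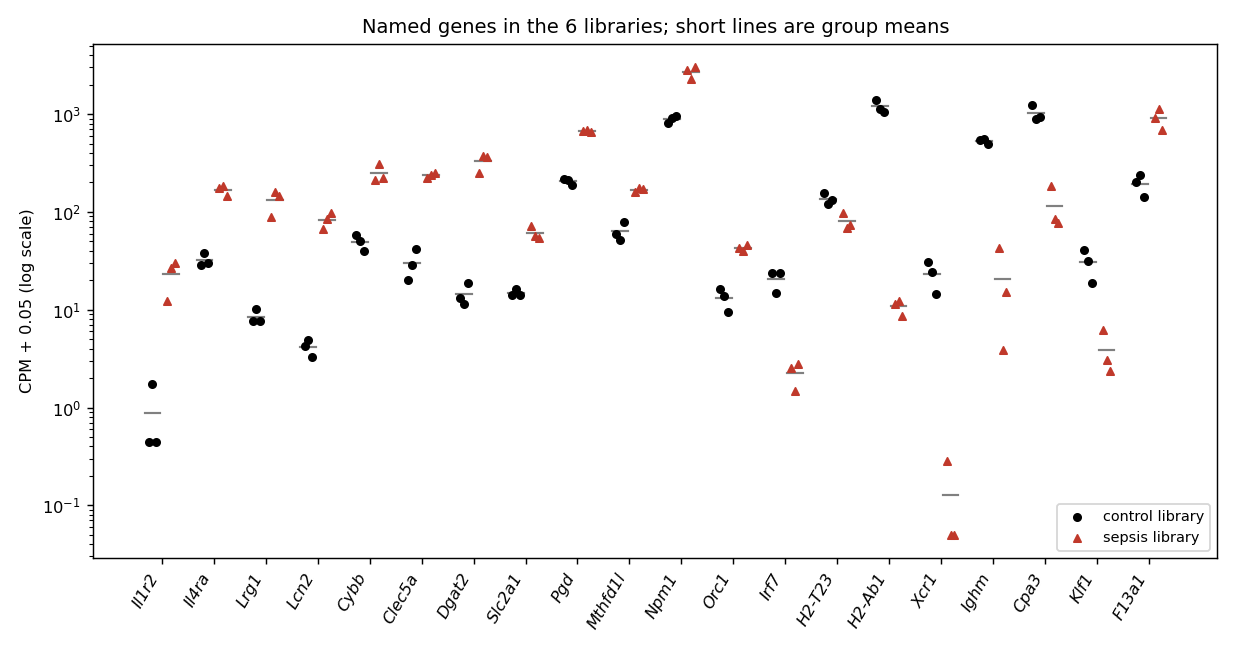
CPM plus 0.05 on a log scale in each of the 3 control libraries (black circles) and 3 sepsis libraries (red triangles) for 20 genes, with short lines at the group means. The sepsis points lie above the control points from Il1r2 to Orc1 and for F13a1, and below them from Irf7 to Klf1, without overlap.

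Genes of glucose metabolism rose widely. Of 26 glycolysis and hypoxia genes, 16 were called higher and 1 lower, with a median change of 0.85, and 0 were lower without sepsis library 2 or 3 or control library 2 or 3. Slc2a1, the glucose transporter GLUT1, rose from 14, 16.3 and 14 to 71.6, 56.4 and 54.1 CPM, a change of 2.03 ± 0.31 with an adjusted p of 2.61e-05. Pgam1, a phosphoglycerate mutase, rose from 194, 202 and 199 to 636, 549.8 and 615 CPM, a change of 1.60 ± 0.13 with an adjusted p of 1.28e-09. Ldha, which turns pyruvate into lactate, rose from 1316, 1159 and 1320.3 to 3529, 3249.8 and 3545 CPM, a change of 1.44 ± 0.13 with an adjusted p of 4.1e-09. Each of these genes was higher in each septic library than in any control library. Gapdh rose by 2.35 ± 0.21 (adjusted p = 6.92e-09), a value that is less certain because Gapdh has many pseudogene copies. Of 7 pentose phosphate genes, 5 were called higher and 0 lower, with a median of 0.81. Pgd, which yields NADPH, rose from 214, 212 and 189 to 667, 681 and 654 CPM (1.70 ± 0.18 with an adjusted p of 8.24e-08), and G6pdx, the entry enzyme of the pathway, from 144, 121 and 131 to 289.8, 289 and 277 CPM (1.11 ± 0.10 with an adjusted p of 4.82e-09).

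Amino acid and lipid genes rose as well. Of 22 ATF4, serine and amino acid genes, 10 were called higher and 0 lower, with a median of 0.88. Atf4, the transcription factor of the amino acid response, rose from 68, 58.9 and 82.9 to 191, 140.4 and 211 CPM (1.37 ± 0.18 with an adjusted p of 3.22e-06). Mthfd1l, a mitochondrial enzyme of one-carbon metabolism, rose from 59.9, 51.4 and 79.6 to 158, 176 and 172 CPM (1.41 ± 0.19 with an adjusted p of 5.55e-06). Slc7a1, a transporter of arginine and lysine, rose from 37.9, 41.3 and 32.8 to 70.04, 113 and 95.7 CPM (1.32 ± 0.18 with an adjusted p of 5.2e-06). Sepsis library 1 was the lowest of its group for Slc7a1. Of 24 fatty acid and triglyceride genes, 10 were called higher and 2 lower, with a median of 0.44, and 1 was lower without any 1 library but sepsis library 1. Beside Dgat2, these included Srebf1, a transcription factor of lipid synthesis, from 71.1, 60.8 and 48.7 to 140.5, 151 and 157 CPM (1.31 ± 0.13 with an adjusted p of 6.58e-08), and Acadl, an enzyme of fatty acid oxidation, from 47.3, 44.4 and 48 to 124, 111 and 124 CPM (1.36 ± 0.21 with an adjusted p of 2.55e-05). Cd36, a fatty acid uptake receptor that erythroid and other lineages also carry, fell from 24, 17.3 and 15 to 0.309, 0.288 and 0.546 CPM (-5.60 ± 1.38 with an adjusted p of 0.00453). Cholesterol synthesis had 2 of 24 members called higher and 0 lower, with a median of 0.17. Its higher calls were near the 10.3% of all genes tested. Only 1 was higher without any 1 sepsis library or control library 2, and 0 without control library 1.

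Growth and replication genes rose, whereas mitotic genes did not move to a side. Of 27 ribosome biogenesis genes, 12 were called higher and 0 lower, with a median of 0.58. Npm1, nucleophosmin, rose from 802, 917 and 952 to 2841, 2271 and 3002 CPM (1.60 ± 0.25 with an adjusted p of 2.44e-05). Bop1, a factor of large subunit maturation, rose from 126, 123 and 146 to 306, 329 and 349 CPM (1.32 ± 0.21 with an adjusted p of 3.04e-05). Of 30 DNA replication genes, 14 were called higher and 0 lower, with a median of 0.51. Orc1, a subunit of the origin recognition complex, rose from 16.1, 13.8 and 9.51 to 43.1, 40.02 and 45.3 CPM (1.70 ± 0.32 with an adjusted p of 0.00031), and Cdc45, part of the replicative helicase, from 94.5, 79.4 and 86.5 to 245, 243 and 255 CPM (1.51 ± 0.23 with an adjusted p of 2.71e-05). Ccne1, the cyclin E1 gene of the G1 to S transition, rose from 18.5, 18.3 and 21.3 to 112, 124 and 119 CPM (2.61 ± 0.37 with an adjusted p of 1.02e-05). In the G2 and M phase list 3 of 27 members were called higher and 4 lower, 2 lower without sepsis library 2, and the median was -0.09; Ccna2, cyclin A2, rose (1.34 ± 0.14, adjusted p = 8.8e-08) while Nusap1, a spindle protein, fell (-1.06 ± 0.17, adjusted p = 4.3e-05). Cdk6, a G1 kinase of progenitors, fell from 1423, 1532 and 1646 to 992, 973 and 838 CPM (-0.71 ± 0.11 with an adjusted p of 2.61e-05), a call lost against a fold change of 1.5 (adjusted p = 0.283). Cytosolic ribosomal protein genes had 11 of 31 called higher and 0 lower, but the count was 5 without sepsis library 1, sepsis library 3 or control library 1, 6 without control library 2 and 7 without control library 3, and it was 23 with only the libraries compared and 24 by limma.

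**Figure D3:**
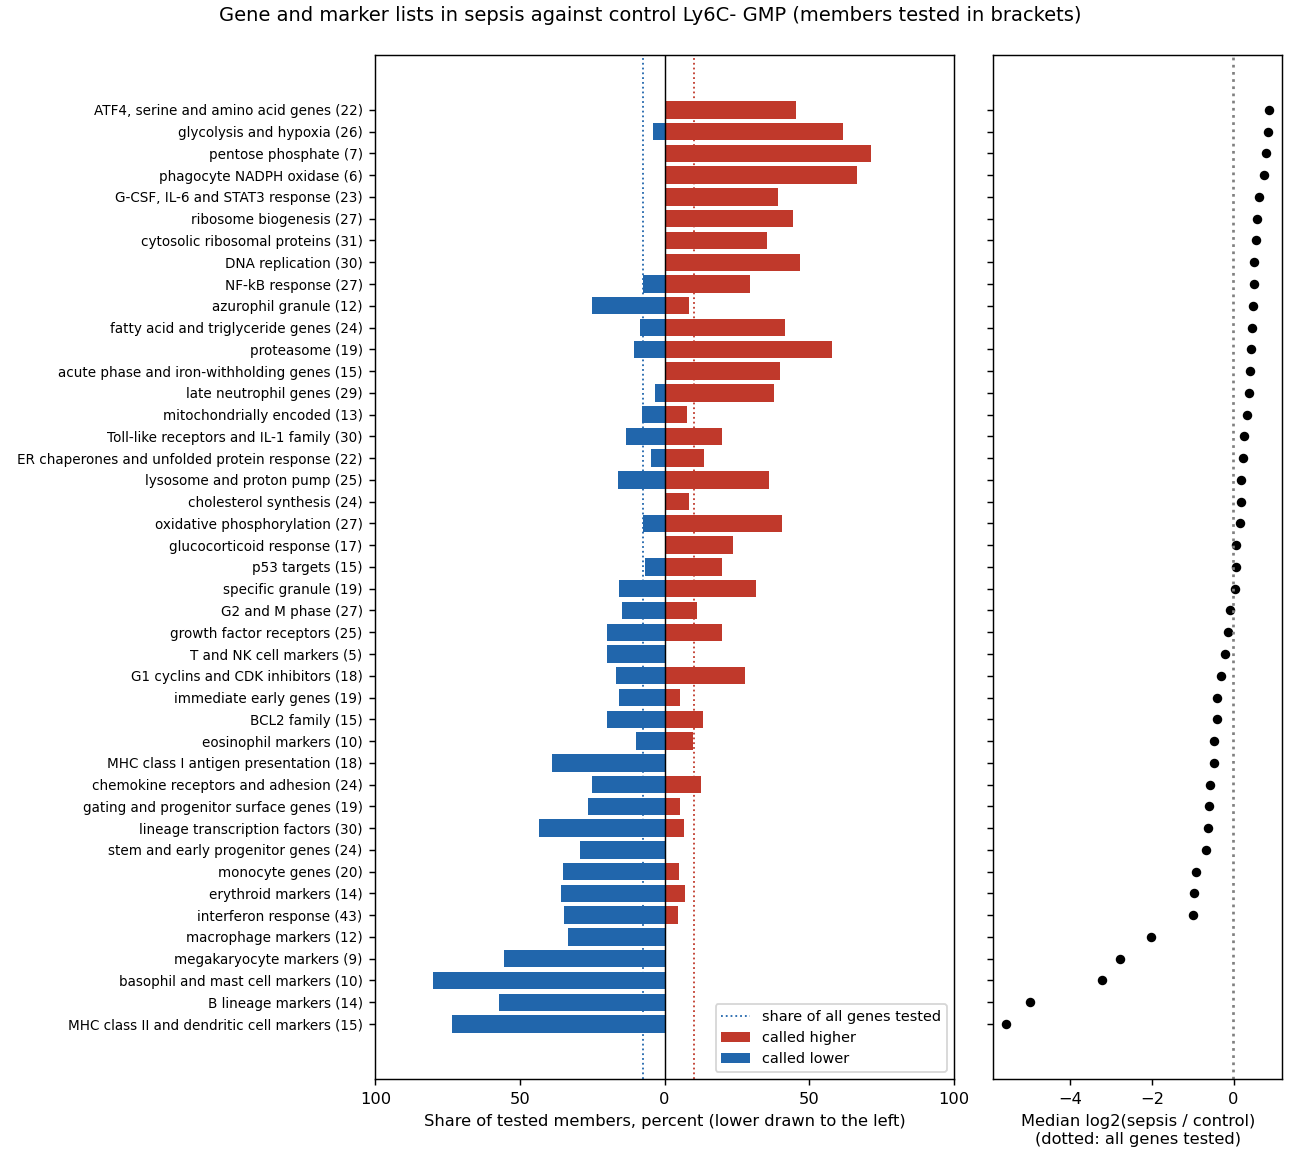
Left, the percent of tested members called higher (red, to the right) and lower (blue, to the left) in each of the 43 lists, with the number tested in brackets and dotted lines at the shares of all genes tested (10.3% higher, 7.42% lower). Right, the median log2 change of each list; glycolysis, pentose phosphate and amino acid genes lie at the upper end and MHC class II, B lineage and basophil markers at the lower end.

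Interferon-stimulated genes were lower in septic Ly6C- GMP. Of 43 tested members, 2 were called higher and 15 lower, with a median of -0.995, and 9 were lower without control library 1. Irf7, the transcription factor that amplifies type I interferon, fell from 23.5, 14.9 and 23.8 to 2.47, 1.44 and 2.73 CPM, a change of -3.22 ± 0.68 with an adjusted p of 0.00105. Zbp1, a sensor of Z-form nucleic acid, fell from 3.28, 9.88 and 4.06 to 1, 0.288 and 0.273 CPM, a change of -3.47 ± 0.56 with an adjusted p of 4.55e-05. Tgtp2, a GTPase induced by interferon gamma with a near-identical neighbour, Tgtp1, fell from 46.2, 34.8 and 68.6 to 10.5, 3.17 and 3.79 CPM, a change of -3.10 ± 0.63 with an adjusted p of 0.000697; reads may be split between the copies. Each septic library was below each control library for these 3 genes. The 2 genes called higher were Ifitm3 and Ifitm1, membrane proteins that restrict virus entry. Ifitm3 rose from 17.2, 14.4 and 21.6 to 61.4, 69.6 and 81 CPM (1.99 ± 0.26 with an adjusted p of 3.22e-06) and Ifitm1 from 36.6, 34.7 and 37 to 97, 91.5 and 102 CPM (1.42 ± 0.30 with an adjusted p of 0.00117). The other 26 members were not called. The MHC class I presentation list had 7 of 18 members called lower and 0 higher, with a median of -0.48. Tapbp, which loads peptide on class I, fell from 331, 336 and 300.04 to 186, 152 and 128 CPM (-1.05 ± 0.15 with an adjusted p of 6.39e-06), and the nonclassical class I gene H2-T23 from 155, 119.99 and 131 to 97.2, 68.1 and 73.8 CPM (-0.77 ± 0.15 with an adjusted p of 0.000615), the latter call being lost against a fold change of 1.5 (adjusted p = 0.283).

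Interferon response type letters stood in 3.93% of all 11094 promoter windows, in 6.13% of windows of genes called lower, in 3.74% of those called higher, and in 23 of 34 interferon list members with a window (67.6%). Tgtp2 holds 1 match at chr11:49064233-49064322 on the - strand and H2-T23 1 at chr17:36032776-36032865 on the - strand. Cybb, which rose, holds 3 at chrX:9469329-9469507 on the - strand.
Tgtp2: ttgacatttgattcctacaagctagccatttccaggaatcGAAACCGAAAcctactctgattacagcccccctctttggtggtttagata
H2-T23: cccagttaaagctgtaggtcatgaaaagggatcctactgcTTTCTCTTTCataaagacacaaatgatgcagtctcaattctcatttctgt
Cybb: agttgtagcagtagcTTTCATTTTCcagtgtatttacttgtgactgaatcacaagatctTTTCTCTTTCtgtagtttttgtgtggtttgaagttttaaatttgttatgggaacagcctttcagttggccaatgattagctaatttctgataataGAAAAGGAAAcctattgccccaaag

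MHC class II and dendritic cell genes were among the largest falls, together with immunoglobulin genes such as Jchain, given further on. The class II chain H2-Ab1 went from 1399, 1134 and 1050.1 CPM in control libraries to 11.4, 12.3 and 8.53 in sepsis libraries, a change of -6.80 ± 0.42 with an adjusted p of 5.81e-12. Cd74, the invariant chain that escorts class II, fell from 1321, 1059 and 933 to 4.17, 3.28 and 2.59 CPM, a change of -8.37 ± 0.67 with an adjusted p of 1.16e-09. H2-Aa, the partner chain of H2-Ab1, fell from 360.04, 243 and 216 to 1.62, 0.792 and 1.23 CPM, a change of -7.81 ± 0.76 with an adjusted p of 2.92e-08. No septic library came near the control level of any of these 3 genes. H2-Eb1, a chain of the other class II molecule, fell from 177, 128 and 104 to 0.541, 0.936 and 1.6 CPM (-7.04 ± 0.76 with an adjusted p of 1.43e-07). Ciita, the master coactivator of class II genes, fell from 25.3, 27.4 and 26 to 0.0772, 0 and 0.205 CPM (-8.02 ± 1.59 with an adjusted p of 0.000544). Markers of conventional dendritic cells fell with them. Xcr1, a chemokine receptor of cross-presenting dendritic cells, fell from 30.7, 24.1 and 14.6 to 0.232, 0 and 0 CPM (-8.16 ± 2.06 with an adjusted p of 0.00645). Clec9a, a receptor for dead cells on the same dendritic type, was at 21.2, 17.3 and 17.3 CPM in control and had 0 counts in the sepsis libraries, at least 516-fold lower against a floor of 3 counts over the group (adjusted p = 0.000989). Plbd1, which this list does not hold, fell from 205, 147 and 120.1 to 1.7, 2.02 and 1.5 CPM (-6.50 ± 0.43 with an adjusted p of 3.78e-11). Of 15 tested class II and dendritic markers, 11 were called lower and 0 higher, with a median of -5.56. Their summed level was 2683 to 3694 CPM in control libraries and 139 to 176 CPM in sepsis libraries. In bulk RNA, fewer cells of a type and less RNA per cell cannot be told apart, here and in the paragraphs that follow.

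The class II windows carry the CCAAT letters, known as the Y box of these promoters, in H2-Eb1 at chr17:34305768-34305866 on the + strand (2 matches) and H2-Aa at chr17:34287827-34287911 on the - strand (1 match). These letters are common, in 42.6% of all windows and in 5 of 11 class II and dendritic members with a window.
H2-Eb1: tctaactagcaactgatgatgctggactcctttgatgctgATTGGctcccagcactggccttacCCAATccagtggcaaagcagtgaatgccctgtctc
H2-Aa: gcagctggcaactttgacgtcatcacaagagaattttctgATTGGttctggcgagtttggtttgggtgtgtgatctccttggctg

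Basophil and mast cell genes were abundant in control Ly6C- GMP and fell steeply. Prss34, a basophil protease, fell from 7437, 5863 and 5177 to 561, 190.03 and 105 CPM, a change of -4.43 ± 0.57 with an adjusted p of 2.67e-06. Mcpt8, another protease of basophils, fell from 919.6, 658 and 589 to 79.8, 27.5 and 27.9 CPM, a change of -4.003 ± 0.38 with an adjusted p of 1.52e-08. Cpa3, carboxypeptidase A3, fell from 1235, 899.6 and 941 to 184, 84.4 and 77.4 CPM, a change of -3.15 ± 0.42 with an adjusted p of 3.62e-06. Sepsis library 1 held the most of Prss34, Mcpt8 and Cpa3 among the septic libraries. Gata2, a transcription factor of basophils, mast cells and stem cells, fell from 272, 169 and 137 to 18.1, 15.5 and 25.8 CPM (-3.28 ± 0.79 with an adjusted p of 0.00351). Of 10 markers, 8 were called lower and 0 higher (median -3.22), and their sum went from 8133 to 11369 CPM in control to 423 to 1199 CPM in sepsis.

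Calls among the eosinophil genes lay near the shares of all genes tested, which were 10.3% higher and 7.42% lower. Epx, eosinophil peroxidase, read 1919.7, 974 and 1297 CPM in control and 1566, 852 and 1183 in sepsis and was not called (-0.22 ± 0.36, adjusted p = 0.758). Prg2, the major basic protein, read 5241, 2935 and 3362 CPM in control and 2553, 1243 and 2068 in sepsis and was not called (-0.98 ± 0.41, adjusted p = 0.105), though it was called lower with only the libraries compared (adjusted p = 0.035) and by limma (0.000161). Epx libraries overlapped between the groups, and Prg2 libraries did not. Of 10 eosinophil markers, 1 was called higher and 1 lower, 3 lower with only the libraries compared, and 3 higher and 4 lower by limma. The higher call was lost without any 1 library but control library 1, and the lower calls came to 0 without sepsis library 2 or control library 1 and to 2 without sepsis library 3. The sums were 4318 to 7847 CPM in control and 2365 to 4543 CPM in sepsis.

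B lineage and megakaryocyte marker sums were also lower, while erythroid sums overlapped between the groups. Ighm, the immunoglobulin heavy chain of IgM, fell from 539, 557 and 498 to 42.4, 3.82 and 15.3 CPM, a change of -4.70 ± 0.59 with an adjusted p of 1.84e-06. Jchain, which joins secreted immunoglobulin, fell from 135, 144 and 127 to 1.78, 0.144 and 0.546 CPM, a change of -7.38 ± 1.28 with an adjusted p of 0.000112. Sepsis library 2 was the lowest for both. Of 14 B lineage markers, 8 were called lower and 0 higher (median -4.99; sums 821 to 1040.3 CPM in control and 41.9 to 84.8 CPM in sepsis), and 4 or 5 were lower without any 1 of the sepsis libraries or control library 2. Pf4, a platelet chemokine, fell from 10.9, 13.5 and 14.8 to 1, 0.792 and 0.409 CPM (-4.15 ± 1.04 with an adjusted p of 0.00555). Of 9 megakaryocyte markers, 5 were called lower and 0 higher (sums 228 to 306 CPM in control and 60.4 to 75.4 CPM in sepsis), but 1 was lower without any 1 of the sepsis libraries or control library 1, and 3 without control library 2. Klf1, the erythroid master factor, fell from 41, 31.8 and 18.8 to 6.18, 3.02 and 2.32 CPM (-2.99 ± 0.59 with an adjusted p of 0.000482). Of 14 erythroid markers, 1 was called higher and 5 lower (sums 324 to 417 CPM in control and 254 to 339.6 CPM in sepsis), with 2 lower without sepsis library 2 or control library 1 and 0 higher without any 1 library but sepsis library 2. Of 12 macrophage markers, 4 were lower and 0 higher, 2 without any 1 of the sepsis libraries or control library 1, and of 5 T and NK cell markers 1 was lower, Nkg7 (-1.34 ± 0.19, adjusted p = 9.69e-06). Apart from the eosinophil and erythroid sums, which overlapped, these marker sums moved with the group, and their part in the changes of other genes was not tested. In the T and NK cell list, 4 of the 5 members were not called and the median change was -0.20. Its lower sum therefore does not show a fall of the list as a whole.

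**Figure D4:**
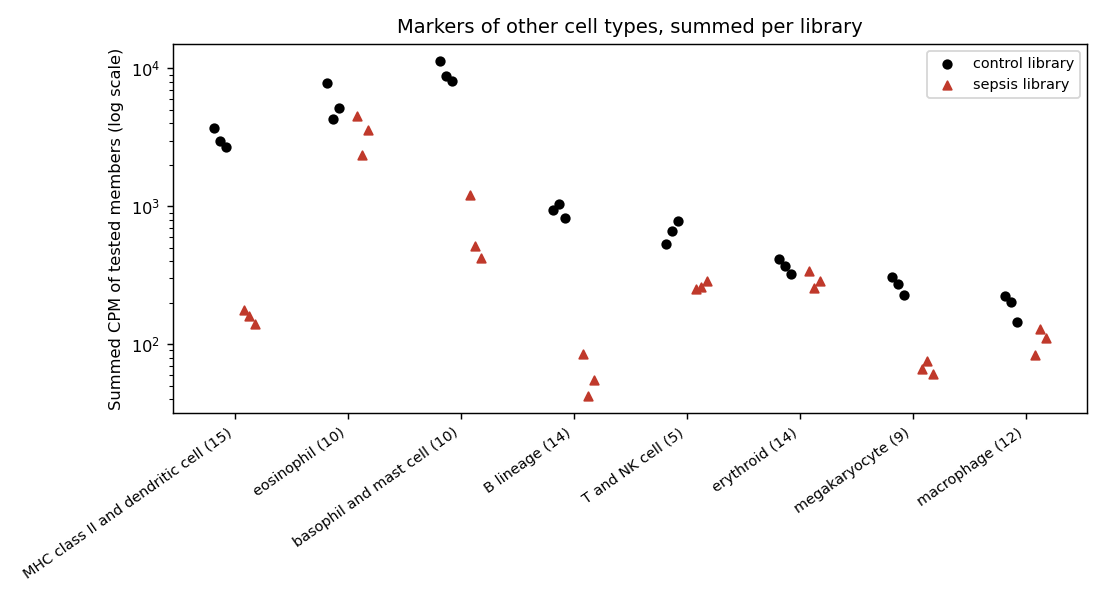
Summed CPM of the tested members of each marker list of another cell type (number tested in brackets), on a log scale, in each control library (black circles) and sepsis library (red triangles). Dendritic, basophil and mast cell, B lineage, T and NK cell, megakaryocyte and macrophage sums of the sepsis libraries lie below those of the control libraries, while eosinophil and erythroid sums overlap.

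In the monocyte and stem cell lists, more members were called lower than higher. Ctss, cathepsin S of antigen-presenting cells, fell from 43.3, 33.4 and 25 to 11.9, 6.05 and 3.89 CPM (-2.22 ± 0.38 with an adjusted p of 0.000111). F13a1, coagulation factor XIII of monocytes and their progenitors, was the 1 gene of this list called higher and rose from 200.4, 241 and 143 to 907, 1138 and 689 CPM (2.23 ± 0.36 with an adjusted p of 5.54e-05). Csf1r, the M-CSF receptor, read 45.7, 49.6 and 57.9 CPM in control and 78.9, 51.6 and 30.5 in sepsis and was not called (0.07 ± 0.43, adjusted p = 0.952). Irf8, a transcription factor of monocytes and dendritic cells, read 237, 184 and 164 CPM in control and 131, 34.7 and 33.2 in sepsis, without overlap and not called (-1.55 ± 0.59, adjusted p = 0.0662). Irf8 was called lower without sepsis library 1 (adjusted p = 0.00726), by limma (0.00012), with halved counts (0.0386) and with a filter of 5 CPM in 3 libraries (0.046). Of 20 monocyte genes, 1 was called higher and 7 lower (median -0.91), and 4 were lower without control library 1. Their summed level did not fall, at 1109 to 1436 CPM in control libraries and 1207 to 1799 CPM in sepsis libraries. F13a1 alone, however, gave 907, 1138 and 689 CPM of the sepsis sums, against 200.4, 241 and 143 CPM in control. The sepsis sums thus rest largely on this 1 gene and do not show that the other members kept their level. A wider group, 1456 genes higher in control cMoP, the monocyte progenitor, than in proNeu1, leaned higher. Of that group, given further on, 468 were called higher and 155 lower. Of 24 stem and early progenitor genes, 0 were called higher and 7 lower (median -0.66), 3 were lower without sepsis library 3, and 11 were lower with only the libraries compared and by limma. Ikzf2, the stem cell factor Helios, fell from 178, 113 and 153 to 39.1, 26.6 and 15.3 CPM (-2.46 ± 0.63 with an adjusted p of 0.00662). Among 30 lineage transcription factors, 2 were called higher and 13 lower, and 1 was higher without sepsis library 3 or any 1 control library. Gfi1, which favours the neutrophil fate, read 17.8, 27.2 and 24.1 CPM in control and 26.4, 36.5 and 51.2 in sepsis and was not called (0.72 ± 0.28, adjusted p = 0.0732), and neither was Cebpa, a factor required to form GMP (-0.46 ± 0.28, adjusted p = 0.297). Gfi1 was called higher without sepsis library 1 (adjusted p = 0.0368), by DESeq2 (0.0435) and with halved counts (0.0444).

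Many changes were shared with later neutrophil-path stages, whose libraries are separate from those of the GMP. Of the 1872 genes called higher in Ly6C- GMP, 1044 (55.8%) were also called higher in septic proNeu1, 1156 (61.8%) in proNeu2 and 546 (29.2%) in preNeu, and these made up 69.1%, 67.2% and 39.6% of the higher calls of those stages. Of all genes tested, 8.3%, 9.45% and 7.57% were called higher in proNeu1, proNeu2 and preNeu. Of the 1351 genes called lower, 725 (53.7%) were also lower in proNeu1, 678 (50.2%) in proNeu2 and 316 (23.4%) in preNeu, which were 54.6%, 49.2% and 41.2% of the lower calls there. Of all genes tested, 7.3%, 7.57% and 4.21% were called lower in those stages. Calls in all 4 populations numbered 367 higher and 201 lower. Depth differed between the stages. Control and sepsis library 1 of proNeu1 held 6.78 and 6.43 Mcounts, and control and sepsis library 3 of preNeu 5.52 and 5.83. The proNeu2 libraries held 17.4 to 22.9 Mcounts. The shares are not adjusted for depth.

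The sepsis effect in Ly6C- GMP was then set against the mean effect in proNeu1, proNeu2 and preNeu by a test of the difference. It was more positive for 132 genes and more negative for 201, together 1.83% of those tested. Without sepsis library 3 the counts were 74 and 111, and without sepsis library 2 they were 83 and 126. Of the 132 genes, 111 were called higher in Ly6C- GMP, and of the 201 genes, 124 were called lower.

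For some genes of the oxidase, calprotectin and granules the effect was more positive in Ly6C- GMP than later. Clec5a changed by 2.96 ± 0.21 in Ly6C- GMP against 0.61, 0.33 and -0.14 in proNeu1, proNeu2 and preNeu, a difference of 2.70 ± 0.23 (adjusted p = 3.26e-08). Cybb changed by 2.33 ± 0.20 against 0.48, 0.49 and -0.57, a difference of 2.19 ± 0.23 (adjusted p = 4.84e-07). S100a8 changed by 2.98 ± 0.32 against 0.02, 0.77 and -0.71, a difference of 2.95 ± 0.35 (adjusted p = 5.5e-06). Dgat2 rose in each stage but by less with maturity, at 2.94, 2.80 and 1.18 against 4.51 ± 0.24 in Ly6C- GMP, a difference of 2.21 ± 0.25 (adjusted p = 2.3e-06). Mcemp1, a mast cell and myeloid membrane protein, changed by 2.71 ± 0.16 against 0.85, 1.16 and 0.29, and Glipr2, a Golgi-associated protein, by 3.73 ± 0.22 against 2.53, 2.40 and 0.56, with differences of 1.94 ± 0.18 (adjusted p = 4.84e-08) and 1.90 ± 0.24 (adjusted p = 1.16e-05). Ltf, which was not called in Ly6C- GMP, changed by -4.76, -1.74 and -1.78 in the later stages, so its difference was positive at 2.47 ± 0.50 (adjusted p = 0.00553). By limma the differences of S100a8 (adjusted p = 0.16) and Ltf (0.499) were not called. The specific granule list had 10 of 19 members with a more positive effect in Ly6C- GMP and 0 with a more negative one. In the late neutrophil list these counts were 7 and 0 of 29. Of all genes tested, 0.725% had a more positive and 1.1% a more negative effect. A positive difference can also reflect a fall in the later stages. Specific granule members called lower in proNeu1, proNeu2 and preNeu numbered 9, 7 and 6, and those called higher 4, 5 and 2.

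On the log2 scale, class II genes fell more in Ly6C- GMP than in the later stages. Control levels of the genes below in the later stages are not given here. The part of a different starting level in these differences was not tested. H2-Ab1 changed by -6.80 ± 0.42 against -0.76, -0.92 and -0.46 in proNeu1, proNeu2 and preNeu, a difference of -6.08 ± 0.44 (adjusted p = 5.1e-10). Naaa, an acid amidase, changed by -3.08 ± 0.22 against 0.38, 0.35 and 1.10, a difference of -3.69 ± 0.25 (adjusted p = 1.75e-10). Mcpt8 changed by -4.003 ± 0.38 against -0.72, 0.23 and -0.38, a difference of -3.71 ± 0.42 (adjusted p = 2.3e-06). Lsp1, an actin-binding protein of leukocytes, changed by -2.87 ± 0.20 against -1.41, -0.12 and -0.24, a difference of -2.28 ± 0.22 (adjusted p = 1.98e-07). Ifitm1 rose in each population, but by 4.20, 5.97 and 6.95 in the later stages against 1.42 ± 0.30 here, a difference of -4.29 ± 0.39 (adjusted p = 4.84e-08). Emilin2, a matrix glycoprotein, was not called in Ly6C- GMP (0.37 ± 0.27, adjusted p = 0.39) and rose by 3.25, 3.72 and 5.52 in proNeu1, proNeu2 and preNeu, a difference of -3.79 ± 0.33 (adjusted p = 3.3e-08). Against proNeu1 alone, the stage closest to it, the effect was more positive for 38 genes and more negative for 43, together 0.445%.

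**Figure D5:**
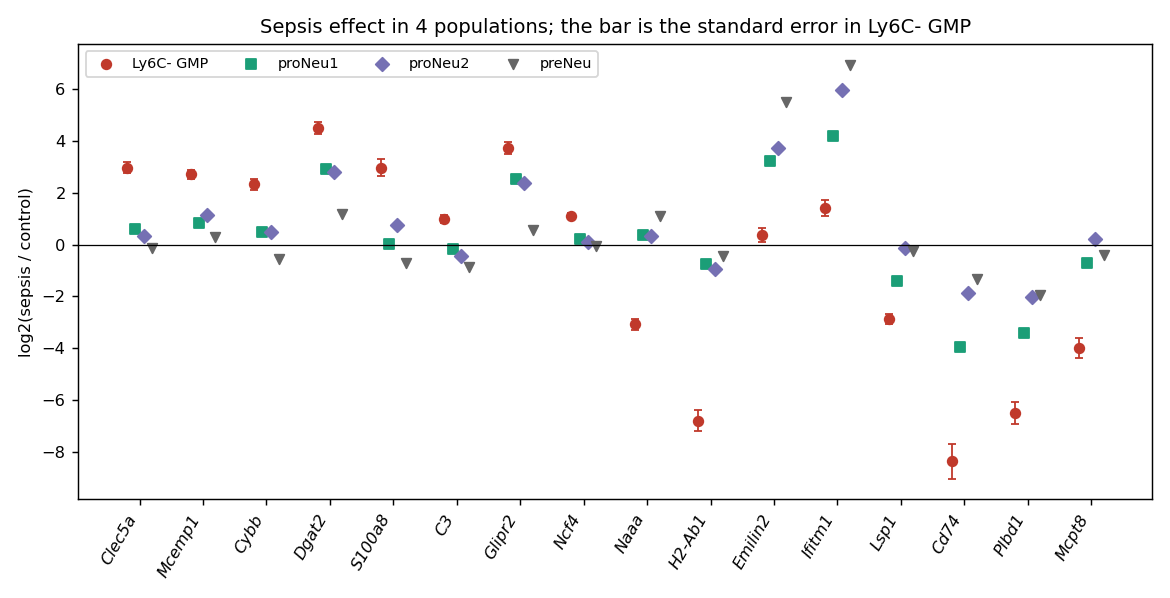
Log2(sepsis / control) in Ly6C- GMP (red circles, bars are SE), proNeu1, proNeu2 and preNeu for 16 genes. These are the 8 with the lowest p on each side of the difference, at 20 CPM or more in the highest group. This choice favours genes whose Ly6C- GMP effect is extreme. From Clec5a to Ncf4 the Ly6C- GMP effect is the highest of the 4, and from Naaa to Mcpt8 it is the lowest of the 4.

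The genes called in sepsis were also read against stage differences among control populations that use no GMP library. Called in these control contrasts were 8.03% of all genes tested as higher and 8.25% as lower in cMoP than in proNeu1, 3.05% in either direction between proNeu2 and proNeu1, and 27.8% in either direction between preNeu and proNeu2. Of 1456 genes higher in control cMoP, the monocyte progenitor, than in proNeu1, 32.1% were called higher in septic Ly6C- GMP and 10.6% lower, against 10.3% and 7.42% of all genes. Of 1501 genes lower in cMoP than in proNeu1, 12.7% were called higher and 21.5% lower. Of 285 genes higher in control proNeu2 than in proNeu1, 24.6% were called higher and 15.1% lower, and of 270 genes lower in proNeu2, 16.7% and 25.6%. Of 2377 genes higher in control preNeu than in proNeu2, 25.2% were called higher and 10.8% lower, and of 2682 genes lower in preNeu, 13.6% and 12.4%. These groups were not matched to all genes by expression level. The cMoP libraries carry male transcripts and the proNeu1 libraries female ones, so Xist and Y-linked genes were left out of these groups.

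A last group of genes crossed from near silence. Under 1 mean CPM in control and at 5 CPM or more in sepsis were 18 genes called higher, of which Lipg and Bcat1 reached the highest level, and Il1r2 was also among them. In the reverse direction, 76 genes at 5 CPM or more in control were called lower to under 1 CPM in sepsis. Of these, 16 were immunoglobulin variable segments or constant region genes, and 13 of the 76 had 0 counts in the septic libraries.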

How the data were processed

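Per the labels' protocols, RNA was amplified by SMARTSeq v2 and sequenced as paired reads. Per the submitters' processing notes, the authors used STAR, featureCounts and the GRCm38 build, and versions, strand setting and handling of multiply mapped reads are not given in the sources used here. Values of overlapping, antisense and near-identical genes are uncertain for that reason. The deposited table holds raw counts of 54752 features in 33 libraries, with 0 spike-in features. Even numbers made up 74.76% of the counts between 1 and 10, a pattern seen when the mates of a read pair are counted singly, so halved counts were 1 alternative.

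All 33 libraries were fitted together in edgeR 4.0.16 (R 4.3.3) with TMM scaling, filterByExpr and robust quasi-likelihood tests of the raw counts, with 22 residual degrees of freedom and a biological coefficient of variation of 0.472. The scripts were tested on simulated data. Alternatives used DESeq2 1.42.0, limma 3.58.1 (voomWithQualityWeights), RLE factors, other filters, other sets of libraries, a test against a fold change of 1.5 and leaving out each library.

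The members and lists were chosen with earlier results of these data known. The 43 lists are described by counts and medians without a set test. Named genes were drawn by a rule from several sources, and not every gene of each source is named. Among called genes at 20 CPM or more without overlap between the groups, these were the 12 strongest rises and 12 strongest falls. Predicted genes and pseudogenes were left out. Each list gave up to 3 called members in each direction, and each marker list its 3 most abundant members. Further sources were gating genes and the 8 genes with the lowest p on each side of the difference from later stages. The last source was up to 5 genes in each direction of the groups near silence. Preference went to genes that stayed called under most alternatives, and this preference was set once the alternatives had been run. Socs3, Tlr4, Csf3r, Ltf, Camp, Cebpa, Gfi1, Ldha, Tgtp2, Clec9a and Irf8 fall outside this rule and were chosen after their values were seen. Genes are placed by symbol, with identifiers and coordinates of GENCODE annotation on GRCm38. Replicate numbers follow accession order and were not used to pair libraries. Sepsis library 1 had the highest mitochondrial share of its group in Ly6C- GMP (2.49%), proNeu1 (1.90%), proNeu2 (2.40%) and preNeu (1.42%). Whether libraries of equal number share mice or handling was not tested.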

Additional observations from a re-analysis of the deposited data

Results flagged for a closer look

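Of the genes named in the text, 40 had a sepsis effect in Ly6C- GMP that differed from the mean effect in proNeu1, proNeu2 and preNeu, by the test of the difference in edgeR at an adjusted p under 0.05. Each value in brackets is that difference on the log2 scale, the effect in Ly6C- GMP minus the mean of the other effects. The 4 populations share no library in this test. When each of the 6 Ly6C- GMP libraries was left out in turn, 28 of these differences were still called each time and 12 were not. Those of Pgd (adjusted p 0.0706 to 0.126) and Pf4 (0.0793 to 0.15) were lost without any 1 of the 6. Those of Csf2rb (adjusted p up to 0.319), Ifitm3 (up to 0.126), Csf3r (up to 0.258), Ncf1 (up to 0.136) and Chil3 (up to 0.181) were lost in 5 of the 6 cases, the cases that kept them being without control library 2 for Csf2rb and Ifitm3, control library 3 for Csf3r and Ncf1, and sepsis library 1 for Chil3. Myd88 (up to 0.109) was lost without any 1 sepsis library or control library 3, Zbp1 (up to 0.13) without sepsis library 2 or 3 or control library 2, Ciita (up to 0.0646) without sepsis library 1 or 2, and Camp (0.097) and Cdk6 (0.0751) without sepsis library 3. Against a fold change of 1.5, 15 of the 40 were lost, with only the libraries compared 7, and by limma 9, namely Lcn2, Csf2rb, Chil3, S100a8, Ncf1, Ltf, Camp, Zbp1 and Ifitm3.

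Among genes called higher in septic Ly6C- GMP, the effect was more positive there for Lrg1 (2.98), S100a8 (2.95), Clec5a (2.70), Lcn2 (2.22), Dgat2 (2.21), Cybb (2.19), Mcemp1 (1.94), Glipr2 (1.90), Chil3 (1.79), C3 (1.49), Neu1 (1.08), Ncf4 (1.02), Pgd (0.77), Ncf1 (0.76), Hp (0.72) and Myd88 (0.61). It was also more positive for the genes Ltf (2.47), Camp (2.27) and Csf3r (0.60), which were not called in Ly6C- GMP, and for Kit (1.25), whose log2 change was below 0 in each population.

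Among genes called lower in septic Ly6C- GMP, the effect was more negative there for Ciita (-7.92), H2-Aa (-7.21), H2-Ab1 (-6.08), H2-Eb1 (-6.01), Cd74 (-5.98), Pf4 (-4.91), Plbd1 (-4.04), Mcpt8 (-3.71), Naaa (-3.69), Itgb7 (-3.21), Ctss (-2.70), Zbp1 (-2.62), Lsp1 (-2.28), Psap (-1.24), H2-T23 (-0.89) and Cdk6 (-0.58). It was more negative for Ifitm1 (-4.29), Ifitm3 (-1.20) and Csf2rb (-0.60), which were called higher in Ly6C- GMP but rose more in the other populations. Emilin2 (-3.79) was not called in Ly6C- GMP. Groups of 3 libraries are too small for a test of outlying libraries, and no column of the table was without a sample.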

How the results depend on the processing

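Calls of the named Ly6C- GMP genes kept their direction: of 95 genes named and called, 0 reversed in any alternative. Of these, 90 were called without each of the 6 libraries in turn, and 80 of the 90 also in every other alternative. Against a fold change of 1.5, 10 lost their call, by limma 6 and by DESeq2 0. Genes that stayed called had been preferred for naming, so these counts do not show how stable the calls of other genes are. Without 1 library in turn, genes called higher ranged from 1409 to 1537 and lower from 892 to 1102. The effect minus the later-stage mean then gave 74 to 107 more positive and 111 to 187 more negative genes, and minus proNeu1 28 to 45 and 23 to 46. Genes lower in control preNeu than proNeu2 and lower in septic Ly6C- GMP numbered 212 to 288.

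Against a fold change of 1.5, a stricter test, 498 genes were higher and 370 lower, the difference from the later-stage mean gave 38 and 98, that from proNeu1 15 and 20, and the lists held 78 higher and 60 lower members. For genes higher in cMoP than proNeu1 this test gave 187 higher and 76 lower, for genes lower in cMoP 68 and 96, for genes higher in proNeu2 than proNeu1 31 and 16, for genes lower in proNeu2 18 and 45, for genes higher in preNeu than proNeu2 225 and 74, and for genes lower in preNeu 70 and 73. Calls shared with proNeu1, proNeu2 and preNeu were then 396, 390 and 199 higher and 238, 186 and 97 lower. By limma, 2165 genes were lower, the difference from the later-stage mean gave 230 and 425, and genes lower in preNeu than proNeu2 gave 591 higher and 520 lower. By DESeq2 the differences gave 288 and 368 against the later-stage mean and 86 and 112 against proNeu1. With only the libraries compared, 25 genes were more positive against proNeu1. The cause of the limma, DESeq2 and library-set differences was not tested.

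No paired analysis was possible because the labels carry no replicate numbers. With 3 libraries per group, absence of a call does not show absence of change, and reads of near-identical genes cannot be assigned. RNA level and cell composition cannot be told apart in bulk libraries.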

Other observations

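The mitochondrial, protein turnover and survival lists also held called members. Of all genes tested, 10.3% were called higher and 7.42% lower. The mitochondrially encoded and ER chaperone lists lay near those shares, as did the higher calls of the BCL2 family. Of 27 oxidative phosphorylation genes encoded in the nucleus, 11 were called higher and 2 lower, with a median of 0.17 against -0.01 for all genes tested, and 1 was lower without sepsis library 2 or 3 or control library 2 or 3. Atp5b, a catalytic subunit of ATP synthase, rose from 843, 851 and 739 to 2559, 2088 and 2339 CPM, a change of 1.52 ± 0.18 with an adjusted p of 6.79e-07. Of 13 mitochondrially encoded genes, 1 was called higher and 1 lower, counts that ran from 0 to 2 when 1 library was left out, and their sum ran from 10074 to 21270 CPM in the sepsis libraries, with library 1 the highest, against 13794 to 14858 CPM in control. Of 19 proteasome genes, 11 were called higher and 2 lower (median 0.44), and 1 was lower without sepsis library 2 or 3 or control library 2 and 0 without control library 3. Of 22 ER chaperone and unfolded protein response genes, 3 were called higher and 1 lower (median 0.24), 5 higher without sepsis library 2 and 3 lower without sepsis library 1.

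Lysosomal genes moved both ways, with 9 of 25 called higher and 4 lower, and 2 lower without sepsis library 3 or control library 1. Ctsl, the protease cathepsin L, rose from 7.36, 11.2 and 8.44 to 48.5, 47.2 and 53.9 CPM (2.47 ± 0.33 with an adjusted p of 4.16e-06). Neu1, a lysosomal sialidase, rose from 88.1, 76.2 and 66.6 to 280.2, 286 and 358 CPM (2.001 ± 0.18 with an adjusted p of 5.61e-09). Psap, the precursor of the saposins, fell from 899.9, 837 and 679.6 to 438, 311 and 299.6 CPM (-1.21 ± 0.14 with an adjusted p of 3.25e-07).

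Among 15 BCL2 family genes, 2 were called higher and 3 lower, and 1 was higher without sepsis library 2 or 3 or control library 1 or 3. Pmaip1, the pro-apoptotic NOXA, rose from 13.5, 7.11 and 13.3 to 52.9, 37.9 and 41 CPM (1.96 ± 0.43 with an adjusted p of 0.00155), and the survival gene Bcl2 fell from 63.6, 62.5 and 52 to 22.5, 12.8 and 19.8 CPM (-1.69 ± 0.44 with an adjusted p of 0.00673). Of 15 p53 targets, 3 were called higher and 1 lower, 1 was higher without sepsis library 1 or control library 1, and 0 were lower without sepsis library 3 or control library 1. Of 18 G1 cyclin and CDK inhibitor genes, 5 were called higher and 3 lower, and 3 were higher without sepsis library 1 or 3 or control library 1 or 2.

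Of 24 chemokine receptor and adhesion genes, 3 were called higher (1 without control library 2) and 6 lower (3 without sepsis library 2 or 3 or control library 1). Itgb7, an integrin subunit, fell from 133, 84.4 and 76.4 to 17.3, 9.65 and 5.83 CPM (-3.16 ± 0.48 with an adjusted p of 2.35e-05). Of 19 immediate early genes, 1 was called higher and 3 lower, 1 lower without sepsis library 2 or control library 1 and 0 higher without any 1 library but sepsis library 2. Of 19 gating and progenitor surface genes, 1 was called higher and 5 lower.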
